A study of Mus musculus with 6 samples.

Results

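The collagen genes of the mouse were examined in polyadenylated RNA from primary melanocytes, the pigment-producing cells, taken from skin. They were chosen by name, as 41 genes for collagen chains, and all 41 were among the 36528 gene models of the deposited files, matched through their gene IDs. The series holds 6 libraries, 3 labelled BAP1 KO, for a knockout of the nuclear deubiquitinase BAP1, and 3 labelled WT, for wild type. The labels give no strain, allele, Cre driver, age or culture time for either group, and do not say whether the replicates came from separate cultures or animals, and the p-values therefore cover no more than the spread among these libraries, which may be technical. As the study is known, it asked what loss of BAP1 does to melanocytes and their survival.

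The label was checked first on the targeted gene. Bap1 was read at 73.6, 77.3 and 72.5 CPM in the BAP1 KO-labelled libraries, against 55.7, 55.6 and 55.8 CPM in the WT-labelled libraries. It was thus not lower under the knockout label (log2 fold change 0.42, SE 0.042, edgeR adjusted p = 3.89e-06), and the counts, pooled over all exons, cannot show whether part of the gene was deleted. Every direction given here therefore rests on the labels alone, and higher or lower always means under the BAP1 KO label compared with the WT label. CPM are a gene's reads relative to the TMM-scaled size of the library, and 3 values in a row are replicates 1, 2 and 3, which are not paired.

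Collagens are secreted or membrane proteins in which 3 chains wind into a triple helix. Fibrillar collagens form the cables of connective tissue, type IV collagen forms the sheet of the basement membrane, and types XV and XVIII sit at its edge. Type VII makes the anchoring fibrils that tie the epidermis to the dermis, type XVII spans the membrane of keratinocytes at hemidesmosomes, and the fibril-associated types decorate the surface of fibrils. In skin, melanocytes rest on the epidermal basement membrane, whereas fibroblasts make most of the fibrillar collagen and keratinocytes contribute types VII and XVII.

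Libraries held 33987690 to 43773769 uniquely aligned reads. Melanocyte markers were abundant in all 6: the 10 of them together stood at 63319 to 64142 CPM in the BAP1 KO-labelled libraries and 6595 to 6689.8 CPM in the WT-labelled libraries, and all 10 were higher. Markers of other skin cells moved as well. Of 20 keratinocyte markers, 19 were tested and all 19 were lower (median -4.18), with a summed level of 1009 to 1060.5 CPM in the BAP1 KO-labelled libraries and 14141 to 14378 CPM in the WT-labelled libraries. Of 15 fibroblast markers, none of them a collagen, 12 were tested, 10 were lower and 2 higher (median -2.70), and the sum was 1464 to 1601 CPM in the BAP1 KO-labelled libraries and 10941 to 11634 CPM in the WT-labelled libraries. Most of that sum was Fn1, at 1433 CPM in the BAP1 KO-labelled libraries and 10320.2 CPM in the WT-labelled libraries, and the other 14 summed to 101 to 106 CPM in the BAP1 KO-labelled libraries and 963 to 982 CPM in the WT-labelled libraries. Under the WT label most of this remainder was Fbln2 and Postn, at means of 562 and 353 CPM. Their means were 34.2 and 12.2 CPM in the BAP1 KO-labelled libraries. The 2 higher markers were Pdgfrb and Fbln1, at log2 fold changes of 1.11 and 0.95. The 3 that were not tested, Dpt, Pi16 and Mfap5, reached at most 0.121 CPM in any library. Of 8 myofibroblast and mural markers 7 were lower, and their sum was 204 to 216 CPM in the BAP1 KO-labelled libraries and 733 to 781 CPM in the WT-labelled libraries. For these and later marker counts, the shares over all genes tested were 42.1% lower and 39.4% higher. In such bulk RNA, fewer cells of a type and less RNA per cell cannot be told apart. The part of these marker changes in the collagen differences was not tested.

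Collagen transcripts were fewer in the BAP1 KO-labelled libraries. Summed over the 41 genes they came to 3308, 3489 and 3142 CPM in the BAP1 KO-labelled libraries, against 7670.1, 7495 and 7770.4 CPM in the WT-labelled libraries, a 2.31-fold lower mean, with every BAP1 KO-labelled library below every WT-labelled one. Of the 41 genes, 38 passed the filter on low counts and were tested. Among these 38, 27 were lower, 8 higher and 3 not past the threshold of an adjusted p of 0.05 (edgeR). The share called was 92.1%, where 81.5% of all 17121 genes tested were called. Lower genes made up 71.1% of the collagens, with 42.1% over all genes, and higher genes 21.1%, with 39.4% over all genes. More than 2-fold lower were 22 (57.9%, against 22.7% of all genes) and more than 8-fold lower 11 (28.9%, against 8.88%), while 5 were more than 2-fold higher (13.2%, against 13.9%); in either direction more than 2-fold differences were found for 36.6% of all genes. The median log2 fold change was -1.35 over the collagens and -0.028 over all genes. Since a gene can pass the filter through its higher group alone, these shares describe the 38 and do not cover the other 3. Libraries of a group lay close together, with a median coefficient of variation of 6.48% in the BAP1 KO-labelled libraries and 3.96% in the WT-labelled libraries over the 33 genes that reached 1 CPM in at least 1 group mean. Overlap between the groups was absent for 36 genes of the 38 (94.7%, against 82.7% of all genes), with all BAP1 KO-labelled libraries below for 28 (42.6% of all genes) and above for 8 (40.1% of all genes).

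**Figure D1:**
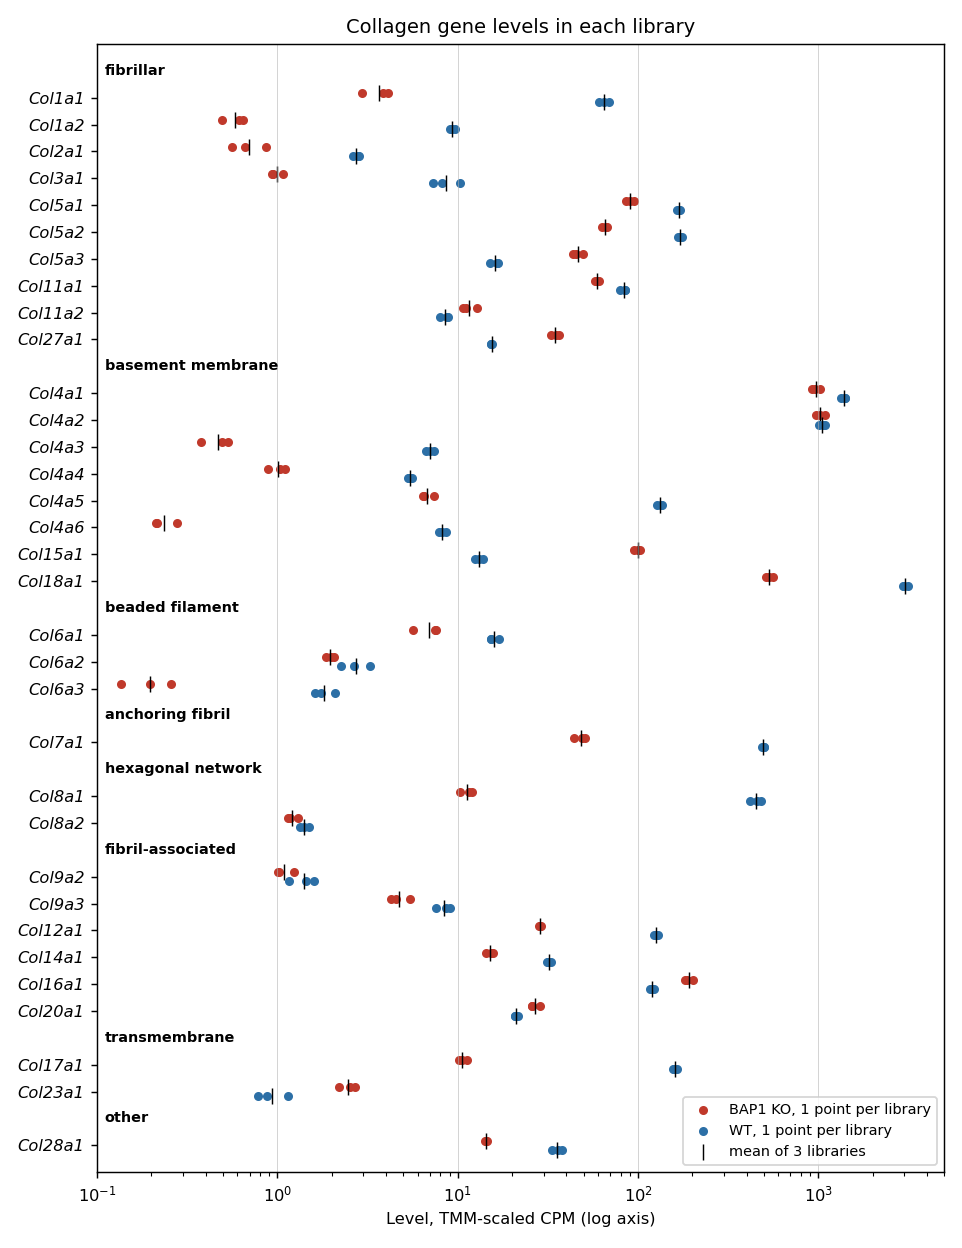
Level of the 33 collagen genes that reached a mean of 1 CPM in at least 1 group, in TMM-scaled CPM on a log axis, sorted by structural class. Each point is a library, red for the BAP1 KO-labelled libraries and blue for the WT-labelled libraries, and the ticks are means of 3. Most genes lie lower in the BAP1 KO-labelled libraries, Col8a1 and Col4a6 farthest, and Col15a1 and Col5a3 lie higher.

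**Figure D2:**
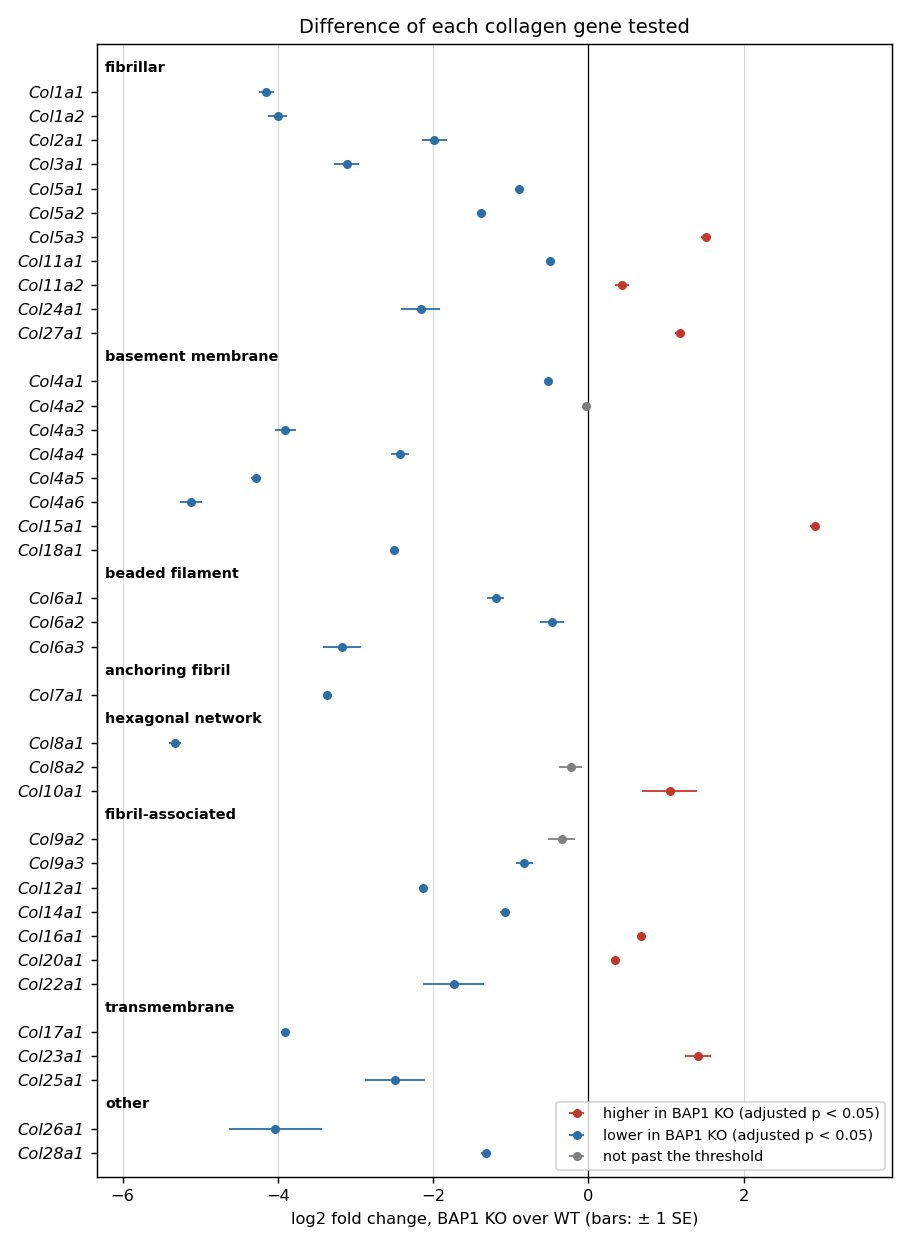
Log2 fold change of the 38 collagen genes tested, BAP1 KO-labelled libraries over the WT-labelled libraries, with 1 standard error on each side. The values run from -5.33 for Col8a1 to 2.92 for Col15a1, and every class with more than 3 tested genes holds both directions.

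The make-up of the collagen pool was compared per unit of gene length with the normalized RPKM (nRPKM) that the authors deposited, as the share of each gene in the summed nRPKM of the 41. Basement membrane genes led it in both groups, at 78.4 ± 0.29% in the BAP1 KO-labelled libraries and 69.7 ± 0.92% in the WT-labelled libraries (SD, n = 3 each). The leading gene differed. Col4a2 held the first place in the BAP1 KO-labelled libraries, with 34.4 ± 0.29% there and 16.5 ± 0.29% in the WT-labelled libraries. Col18a1 held it in the WT-labelled libraries, with 12.1 ± 0.057% in the BAP1 KO-labelled libraries and 32.1 ± 0.64% in the WT-labelled libraries. Col4a1 was second in both groups, at 27.9 ± 0.10% in the BAP1 KO-labelled libraries and 18.6 ± 0.25% in the WT-labelled libraries. Below these, Col16a1 (7.07 ± 0.081% in the BAP1 KO-labelled libraries, 2.07 ± 0.040% in the WT-labelled libraries) and Col15a1 (3.72 ± 0.046% in the BAP1 KO-labelled libraries, 0.230 ± 0.0094% in the WT-labelled libraries) held a larger share in the BAP1 KO-labelled libraries, and Col8a1 a smaller one (0.476 ± 0.057% in the BAP1 KO-labelled libraries, 8.88 ± 0.78% in the WT-labelled libraries). Shares are bound to sum to 100%, so a larger share need not be a higher level; the level of Col4a2 did not pass the test.

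**Figure D3:**
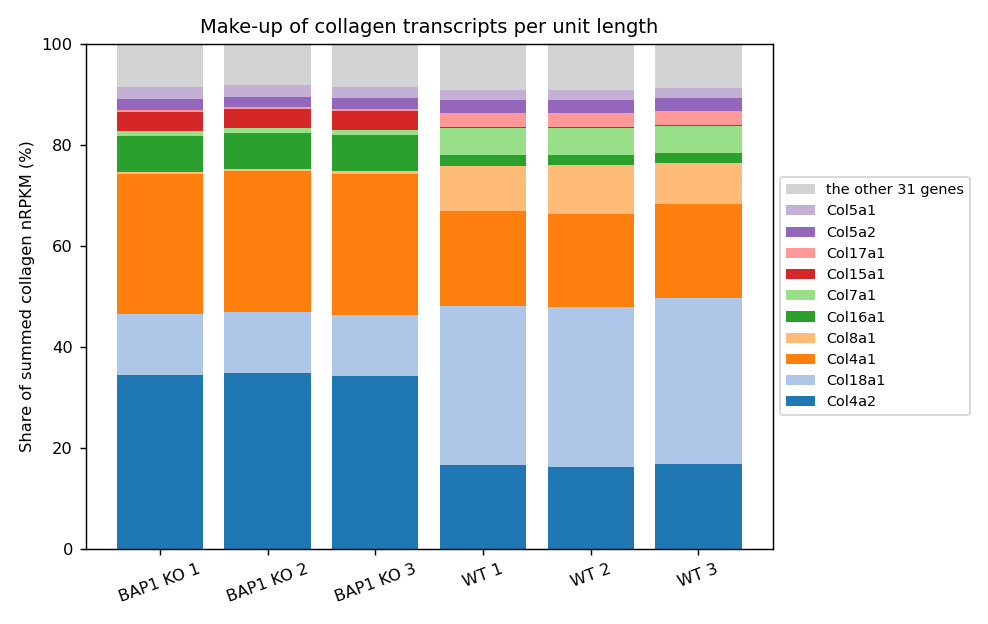
Share of each gene in the summed nRPKM of all 41 collagen genes, in percent, 1 stacked bar per library, with the 10 leading genes coloured and the rest in grey. The bars of a group look alike, and the Col4a2 band is wider in the BAP1 KO-labelled libraries while the Col18a1, Col8a1, Col7a1 and Col17a1 bands are wider in the WT-labelled libraries.

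The fibrillar class has 11 genes, all of them tested, of which 8 were lower and 3 higher. Over all genes, 42.1% were lower and 39.4% higher. Types I and III, the collagens that make up most of the dermis, were lower in the BAP1 KO-labelled libraries, the chains of type I most. Col1a1 was read at 4.12, 3.87 and 2.93 CPM in the BAP1 KO-labelled libraries, against 65.0, 61.0 and 68.9 CPM in the WT-labelled libraries. This chain of type I collagen (gene ID 12842, chromosome 11, 94936224 to 94953042 on GRCm38) was 17.8-fold lower (log2 fold change -4.15, SE 0.097, edgeR adjusted p = 1.94e-11), with no overlap between the groups. Its partner chain, Col1a2 on chromosome 6, was read at 0.647, 0.492 and 0.613 CPM in the BAP1 KO-labelled libraries, against 9.67, 9.07 and 9.26 CPM in the WT-labelled libraries, also lower without overlap (log2 fold change -4.00, SE 0.12, edgeR adjusted p = 1.46e-10). Col3a1 was read at 1.08, 0.938 and 0.948 CPM in the BAP1 KO-labelled libraries, against 10.3, 8.19 and 7.32 CPM in the WT-labelled libraries (log2 fold change -3.11, SE 0.16, edgeR adjusted p = 1.65e-08), and here too each BAP1 KO-labelled library lay below each WT-labelled one. The fibroblast markers of the same libraries had a median of -2.70; their part in the fall of types I and III was not tested. Per length, Col1a1 stood at 0.729 ± 0.13 nRPKM in the BAP1 KO-labelled libraries and 12.7 ± 0.96 nRPKM in the WT-labelled libraries.

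Type V collagen, which starts and limits the width of type I fibrils, was the most abundant fibrillar type per length, and its chains went in opposite directions. Col5a1 was read at 90.6, 95.3 and 86.2 CPM in the BAP1 KO-labelled libraries, against 168, 164 and 172 CPM in the WT-labelled libraries. Col5a2 was read at 67.2, 66.6 and 62.7 CPM in the BAP1 KO-labelled libraries, against 174, 171 and 167 CPM in the WT-labelled libraries. Both were lower without overlap, at log2 fold changes of -0.89 (SE 0.046) and -1.38 (SE 0.043) (edgeR adjusted p = 1.34e-08 and 1.83e-10). The less widely used chain moved the other way: Col5a3 was read at 45.4, 49.4 and 43.7 CPM in the BAP1 KO-labelled libraries, against 16.5, 15.1 and 16.8 CPM in the WT-labelled libraries. Every BAP1 KO-labelled library lay above every WT-labelled one, and Col5a3 was 2.86-fold higher (log2 fold change 1.52, SE 0.064, edgeR adjusted p = 2.61e-09). By nRPKM the mean levels of Col5a1, Col5a2 and Col5a3 were 10.04, 9.34 and 6.90 in the BAP1 KO-labelled libraries and 18.2, 23.8 and 2.36 in the WT-labelled libraries, so that Col5a3 stayed the lowest of the chains in both.

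Type XI chains, which play the part of type V in cartilage, showed the same split at smaller size. Col11a1 was read at 60.4, 59.4 and 57.5 CPM in the BAP1 KO-labelled libraries, against 84.8, 85.0 and 79.5 CPM in the WT-labelled libraries, a lower level (log2 fold change -0.49, SE 0.045, edgeR adjusted p = 1.70e-06). Col11a2 was read at 11.1, 12.8 and 10.6 CPM in the BAP1 KO-labelled libraries, against 8.75, 7.95 and 8.88 CPM in the WT-labelled libraries, a higher one (log2 fold change 0.43, SE 0.087, edgeR adjusted p = 8.55e-04). In neither gene did the groups overlap. Col2a1 was read at 0.863, 0.657 and 0.558 CPM in the BAP1 KO-labelled libraries, against 2.62, 2.82 and 2.79 CPM in the WT-labelled libraries; this main collagen of cartilage was lower (log2 fold change -1.98, SE 0.16, edgeR adjusted p = 8.20e-07). Col27a1, a fibrillar gene of cartilage and other tissues, was among the few that were higher. It was read at 35.2, 36.3 and 33.0 CPM in the BAP1 KO-labelled libraries, against 15.3, 15.3 and 15.5 CPM in the WT-labelled libraries (log2 fold change 1.18, SE 0.055, edgeR adjusted p = 6.45e-09), with each BAP1 KO-labelled library above each WT-labelled one. Col24a1 stayed under 1 CPM on average in both groups and was lower (log2 fold change -2.16, SE 0.25).

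The basement membrane class has 8 genes, all tested, with 6 lower, 1 higher and 1 not past the threshold. The share called, 87.5%, is near the 81.5% of all genes, of which 42.1% were lower and 39.4% higher. Col4a1 and Col4a2 form the common type IV trimer of nearly all basement membranes and lie head to head on chromosome 8. Col4a1 was read at 960.2, 1019 and 916 CPM in the BAP1 KO-labelled libraries, against 1401, 1336 and 1403 CPM in the WT-labelled libraries. Col4a2 was read at 1024, 1091 and 965 CPM in the BAP1 KO-labelled libraries, against 1056, 1013 and 1081 CPM in the WT-labelled libraries. Col4a1 was lower in every BAP1 KO-labelled library (log2 fold change -0.52, SE 0.043, edgeR adjusted p = 7.97e-07), whereas the Col4a2 values of the groups overlapped (log2 fold change -0.033, SE 0.047, edgeR adjusted p = 0.530). For Col4a2 the sign of this small difference changed with the library left out, and with at least 5 CPM required in 3 libraries it passed the threshold at -0.11 (edgeR adjusted p = 0.0494). Both genes had at least 32858 reads in each library.

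The start regions of this pair, and those of the genes with the largest rise and the largest fall, are printed because Col4a1 and Col4a2 share part of theirs, yet Col4a1 passed the test and Col4a2 did not. The windows, from RefSeq on GRCm38.p6, run from 250 bases before to 50 bases after the annotated start, 5′ to 3′ on the strand of the gene. Capitals mark matches on either strand to 6 motifs (GC box, CCAAT box, TATA box, AP-1 site, M-box and TEAD site).
Col4a1 chr8:11312777-11313076 minus strand: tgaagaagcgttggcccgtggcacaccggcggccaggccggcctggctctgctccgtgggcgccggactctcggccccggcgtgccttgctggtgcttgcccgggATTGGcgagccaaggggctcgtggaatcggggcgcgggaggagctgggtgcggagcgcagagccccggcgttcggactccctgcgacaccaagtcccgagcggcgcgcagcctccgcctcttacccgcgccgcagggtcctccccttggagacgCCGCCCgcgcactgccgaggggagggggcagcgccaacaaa
Col4a2 chr8:11312555-11312854 plus strand: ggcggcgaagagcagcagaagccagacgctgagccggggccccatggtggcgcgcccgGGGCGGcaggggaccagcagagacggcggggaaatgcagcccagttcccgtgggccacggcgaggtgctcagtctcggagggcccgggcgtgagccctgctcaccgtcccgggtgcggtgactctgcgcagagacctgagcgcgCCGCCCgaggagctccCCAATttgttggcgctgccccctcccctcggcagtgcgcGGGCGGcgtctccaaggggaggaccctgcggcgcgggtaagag
Col15a1 chr4:47207762-47208061 plus strand: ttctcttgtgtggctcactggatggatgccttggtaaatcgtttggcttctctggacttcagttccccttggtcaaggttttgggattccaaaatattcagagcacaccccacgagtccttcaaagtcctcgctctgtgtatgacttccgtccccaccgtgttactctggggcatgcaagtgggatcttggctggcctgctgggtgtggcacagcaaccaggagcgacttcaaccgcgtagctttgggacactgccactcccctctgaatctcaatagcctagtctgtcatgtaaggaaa
Col8a1 chr16:57754688-57754987 minus strand: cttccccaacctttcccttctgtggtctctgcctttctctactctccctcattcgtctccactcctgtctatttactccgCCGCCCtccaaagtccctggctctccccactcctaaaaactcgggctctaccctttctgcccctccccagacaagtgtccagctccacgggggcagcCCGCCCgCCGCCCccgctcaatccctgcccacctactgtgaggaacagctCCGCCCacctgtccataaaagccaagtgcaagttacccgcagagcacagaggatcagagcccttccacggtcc
The annotated starts of Col4a1 and Col4a2 lie 21 bases apart on opposite strands, and the windows share 78 bases, chr8:11312777-11312854, which hold 1 GC box (GGGCGG) seen in both. The CCAAT boxes of the windows, 145 bases before the Col4a1 start and 32 bases before the Col4a2 start, are separate.

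Of the 41 genes, 32 had a window, 35 windows in all since some genes have several starts, and the same motifs were counted in all 32851 windows of the table. The GC box GGGCGG was in 20 of 35 (57.1%, against 35.7% of all windows), and CCAAT in 12 of 35 (34.3%, against 37.4% of all windows). The median GC content was 59.7% over the collagen windows and 52.7% over all windows, and its part in the GC box share was not tested. TATAAA was found in 5 of 35 (14.3%, against 13.6% of all windows), and the TEAD motif GGAATG in 5 of 35 (14.3%, against 14.7% of all windows). The AP-1 motif TGANTCA was in 1 of 35 (2.9%, against 7.8% of all windows) and the M-box TCANGTG, of the kind that MITF binds, in 2 of 35 (5.7%, against 14.3% of all windows). Among windows of genes that were higher, 5 of 8 held a GC box, and among those of genes that were lower, 12 of 20. The Col15a1 window, of the gene with the largest rise, held none of the 6 motifs, and the Col8a1 window, of the gene with the largest fall, held 4 GC boxes and no other. A match here describes letters and not a bound site.

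The other type IV chains were lower by far more than Col4a1. Col4a5 and Col4a6, whose chains join in the basement membrane of skin, also lie head to head, on chromosome X, with annotated starts 1343 bases apart. Col4a5 was read at 6.52, 7.41 and 6.41 CPM in the BAP1 KO-labelled libraries, against 135, 136 and 127 CPM in the WT-labelled libraries, 19.5-fold lower (log2 fold change -4.28, SE 0.064, edgeR adjusted p = 7.39e-13). Col4a6 was read at 0.216, 0.211 and 0.279 CPM in the BAP1 KO-labelled libraries, against 8.57, 7.87 and 8.20 CPM in the WT-labelled libraries, 34.7-fold lower (log2 fold change -5.12, SE 0.14, edgeR adjusted p = 8.61e-11). The Col4a6 level in the BAP1 KO-labelled libraries rests on 8, 9 and 10 reads. Col4a3 and Col4a4, best known from the filter of the kidney, form the third such pair, on chromosome 1. Col4a3 was read at 0.377, 0.492 and 0.530 CPM in the BAP1 KO-labelled libraries, against 7.42, 6.65 and 7.01 CPM in the WT-labelled libraries (log2 fold change -3.90, SE 0.14, edgeR adjusted p = 5.97e-10). Col4a4 was read at 1.11, 0.891 and 1.03 CPM in the BAP1 KO-labelled libraries, against 5.35, 5.29 and 5.55 CPM in the WT-labelled libraries (log2 fold change -2.42, SE 0.12, edgeR adjusted p = 8.94e-09). None of these 4 genes overlapped between the groups. The keratinocyte markers, at a median of -4.18, were lower in the same libraries; their part in the Col4a5 and Col4a6 difference was not tested.

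Types XV and XVIII, close relatives whose ends release anti-angiogenic fragments such as endostatin, went opposite ways. Col15a1 was read at 99.96, 103 and 94.8 CPM in the BAP1 KO-labelled libraries, against 13.1, 12.4 and 13.9 CPM in the WT-labelled libraries. Col15a1 (gene ID 12819, chromosome 4, 47207655 to 47313167 on GRCm38) had the largest rise of all collagen genes tested, 7.55-fold (log2 fold change 2.92, SE 0.057, edgeR adjusted p = 5.01e-12), and every BAP1 KO-labelled library lay above every WT-labelled one. Col18a1 was read at 532, 563 and 509 CPM in the BAP1 KO-labelled libraries, against 3001, 2947 and 3134 CPM in the WT-labelled libraries. Col18a1 (gene ID 12822, chromosome 10, 77052178 to 77166530) was 5.66-fold lower (log2 fold change -2.50, SE 0.044, edgeR adjusted p = 2.44e-12), again without overlap, and supplied 16.1% of collagen reads in the BAP1 KO-labelled libraries and 39.6% in the WT-labelled libraries. Its counts pool transcripts from separate starts on chromosome 10, which are not told apart here.

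The collagens of the epidermal junction were lower. Col7a1 was read at 48.9, 51.1 and 44.1 CPM in the BAP1 KO-labelled libraries, against 498, 484 and 498 CPM in the WT-labelled libraries. Type VII collagen, the anchoring fibril protein (gene ID 12836, chromosome 9, 108953586 to 108984875), was thus 10.3-fold lower (log2 fold change -3.36, SE 0.054, edgeR adjusted p = 1.31e-12). Col17a1 was read at 10.5, 11.2 and 10.1 CPM in the BAP1 KO-labelled libraries, against 158, 157 and 165 CPM in the WT-labelled libraries. Col17a1, the transmembrane collagen of hemidesmosomes (gene ID 12821, chromosome 19, 47646341 to 47692042), was 15.02-fold lower (log2 fold change -3.91, SE 0.054, edgeR adjusted p = 4.59e-13), and in neither gene did the groups overlap. Side by side, the keratinocyte markers Krt5 and Krt14, keratins of basal keratinocytes, had log2 fold changes of -4.18 and -4.37, and their part in the fall of Col7a1 and Col17a1 was not tested. Another transmembrane gene rose: Col23a1 was read at 2.18, 2.53 and 2.70 CPM in the BAP1 KO-labelled libraries, against 1.15, 0.878 and 0.776 CPM in the WT-labelled libraries (log2 fold change 1.41, SE 0.17, edgeR adjusted p = 1.94e-05), without overlap. Col25a1, a transmembrane collagen of neurons and muscle, stayed under 1 CPM and was lower (log2 fold change -2.49, SE 0.39), and Col13a1, with 2 reads over the BAP1 KO-labelled libraries and 4 over the WT-labelled libraries, was not tested.

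Col8a1, a chain of the hexagonal network under endothelia and in the cornea, had the largest fall of all collagen genes tested. Col8a1 was read at 11.9, 10.2 and 11.6 CPM in the BAP1 KO-labelled libraries, against 454, 482 and 416 CPM in the WT-labelled libraries. This was a 40.1-fold lower level (log2 fold change -5.33, SE 0.075, edgeR adjusted p = 5.52e-13; gene ID 12837, chromosome 16, 57624256 to 57754737 on GRCm38) with no overlap. Col8a2 encodes the partner chain and was read at 1.29, 1.15 and 1.17 CPM in the BAP1 KO-labelled libraries, against 1.496, 1.33 and 1.41 CPM in the WT-labelled libraries. It did not pass the threshold (log2 fold change -0.23, SE 0.15, edgeR adjusted p = 0.195), although each BAP1 KO-labelled library lay below each WT-labelled one. The 7 endothelial markers, of which 3 were tested, 2 higher and 1 lower, summed to 48.8 to 53.9 CPM in the BAP1 KO-labelled libraries and 14.7 to 15.6 CPM in the WT-labelled libraries, mostly Vwf and Kdr, and their part in the Col8a1 difference was not tested. Among them Cdh5, Emcn and Cldn5 reached at most 0.0809 CPM in any library. Col10a1, the network collagen of growth plate cartilage, was higher (log2 fold change 1.05, SE 0.35, edgeR adjusted p = 0.0175) at under 1 CPM, with 53 reads over the BAP1 KO-labelled libraries and 25 over the WT-labelled libraries. Its call was lost without replicate 1 of the BAP1 KO-labelled libraries (log2 fold change 0.89, edgeR adjusted p = 0.0686), without replicate 3 of the WT-labelled libraries (0.76, edgeR adjusted p = 0.0614) and with DESeq2 (1.06, DESeq2 adjusted p = 0.0654).

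Type VI collagen, whose chains form beaded filaments around cells, was low and fell unevenly. Col6a1 was read at 7.58, 7.48 and 5.66 CPM in the BAP1 KO-labelled libraries, against 15.2, 15.3 and 17.0 CPM in the WT-labelled libraries (log2 fold change -1.20, SE 0.10, edgeR adjusted p = 1.25e-06). Col6a2 was read at 2.05, 1.97 and 1.87 CPM in the BAP1 KO-labelled libraries, against 3.28, 2.26 and 2.64 CPM in the WT-labelled libraries (log2 fold change -0.47, SE 0.15, edgeR adjusted p = 0.0146), a difference that no longer passed the threshold without replicate 3 of the BAP1 KO-labelled libraries (log2 fold change -0.42, edgeR adjusted p = 0.0549) or without replicate 1 of the WT-labelled libraries (-0.30, edgeR adjusted p = 0.0911). Col6a3 was read at 0.135, 0.258 and 0.195 CPM in the BAP1 KO-labelled libraries, against 1.75, 2.07 and 1.62 CPM in the WT-labelled libraries (log2 fold change -3.17, SE 0.24, edgeR adjusted p = 4.14e-07). In all of them the BAP1 KO-labelled libraries lay below the WT-labelled libraries, but Col6a3 counted only 5, 11 and 7 reads in the BAP1 KO-labelled libraries.

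Of the 7 fibril-associated collagens tested, 4 were lower, 2 higher and 1 not past the threshold, a share called of 85.7% that is near the 81.5% of all genes. Col12a1 was read at 29.1, 28.3 and 28.6 CPM in the BAP1 KO-labelled libraries, against 129, 125 and 123 CPM in the WT-labelled libraries. Col12a1, which binds type I fibrils under mechanical load, was 4.39-fold lower (log2 fold change -2.13, SE 0.042, edgeR adjusted p = 5.48e-12). Col14a1 encodes a related chain and was read at 15.7, 15.2 and 14.4 CPM in the BAP1 KO-labelled libraries, against 31.6, 32.7 and 31.4 CPM in the WT-labelled libraries (log2 fold change -1.08, SE 0.055, edgeR adjusted p = 1.33e-08). Neither overlapped between the groups. Col16a1 was read at 188, 201 and 182 CPM in the BAP1 KO-labelled libraries, against 123, 117 and 119 CPM in the WT-labelled libraries. Col16a1, found near basement membranes and in dermal fibrils, was thus 1.59-fold higher (log2 fold change 0.67, SE 0.046, edgeR adjusted p = 1.499e-07) and was the most abundant of the class per length in both groups. Col20a1 was read at 28.4, 25.8 and 25.9 CPM in the BAP1 KO-labelled libraries, against 20.7, 20.8 and 21.6 CPM in the WT-labelled libraries, also higher without overlap (log2 fold change 0.34, SE 0.057, edgeR adjusted p = 2.15e-04). Col9a3 was read at 5.45, 4.53 and 4.27 CPM in the BAP1 KO-labelled libraries, against 8.63, 9.04 and 7.57 CPM in the WT-labelled libraries (log2 fold change -0.82, SE 0.11, edgeR adjusted p = 3.93e-05). Col9a2 was read at 1.02, 1.24 and 1.004 CPM in the BAP1 KO-labelled libraries, against 1.44, 1.60 and 1.16 CPM in the WT-labelled libraries, with overlapping groups (log2 fold change -0.34, SE 0.18, edgeR adjusted p = 0.0962). Both encode chains of type IX, which coats type II fibrils; without replicate 3 of the WT-labelled libraries, Col9a2 passed the threshold at -0.44 (edgeR adjusted p = 0.0445). Col22a1 stayed under 1 CPM and was lower (log2 fold change -1.74, SE 0.39). Col9a1, with 6 reads over the BAP1 KO-labelled libraries and 5 over the WT-labelled libraries, and Col19a1, with 2 over the BAP1 KO-labelled libraries and 4 over the WT-labelled libraries, were not tested.

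Of the remaining genes, Col28a1 was read at 14.2, 14.3 and 14.5 CPM in the BAP1 KO-labelled libraries, against 38.0, 36.0 and 33.1 CPM in the WT-labelled libraries. Col28a1, known in mice from the basement membranes around glia of peripheral nerves, was lower without overlap (log2 fold change -1.32, SE 0.062, edgeR adjusted p = 6.76e-09). Of 9 Schwann and glial markers 5 were higher and 3 lower, with a sum of 3105 to 3121 CPM in the BAP1 KO-labelled libraries and 1045 to 1104 CPM in the WT-labelled libraries. Col26a1 counted 4 reads over the BAP1 KO-labelled libraries, all of them in replicate 3, and 70 over the WT-labelled libraries, and was lower (log2 fold change -4.03, SE 0.60) at under 1 CPM.

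Because the chains of 1 collagen type are wound together, the ratio of chains per length was followed in each library for 6 pairs. The ratio of Col4a1 to Col4a2 was 0.807, 0.805 and 0.817 in the BAP1 KO-labelled libraries, against 1.14, 1.14 and 1.12 in the WT-labelled libraries, so that Col4a2 was the more abundant chain under 1 label and Col4a1 under the other. By the nRPKM lengths, the ratio of Col5a1 to Col5a2 crossed 1 the other way, at 1.05, 1.11 and 1.07 in the BAP1 KO-labelled libraries, against 0.750, 0.745 and 0.799 in the WT-labelled libraries. In both pairs the groups did not overlap, with log2 differences of -0.48 and 0.49. These differences do not depend on gene length, but the side of 1 on which a ratio lies does. Merged exons of GENCODE M21 make Col5a1 the shorter gene, at 8490 bases against 9591 for Col5a2. With these lengths Col5a1 would lead under both labels, so the crossing of this pair holds for the nRPKM lengths only. The ratio of Col4a5 to Col4a6 was 30.7, 35.6 and 23.3 in the BAP1 KO-labelled libraries, against 15.9, 17.5 and 15.7 in the WT-labelled libraries, and that of Col6a1 to Col6a2 5.59, 5.74 and 4.58 in the BAP1 KO-labelled libraries, against 7.01, 10.3 and 9.71 in the WT-labelled libraries. For Col6a1 to Col6a3 it was 153, 79.1 and 79.1 in the BAP1 KO-labelled libraries, against 23.6, 20.2 and 28.5 in the WT-labelled libraries, resting on the few Col6a3 reads. Type I was the pair whose ratio overlapped between the groups: Col1a1 to Col1a2 stood at 6.96, 8.58 and 5.21 in the BAP1 KO-labelled libraries, against 7.34, 7.34 and 8.12 in the WT-labelled libraries. The two-sided exact permutation test over 3 against 3 libraries cannot go below p = 0.1, which the other 5 pairs reached (0.12 after adjustment over 6 pairs), and it gave p = 0.7 for type I. This test could therefore pass none of these differences at 0.05, whatever their size.

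**Figure D4:**
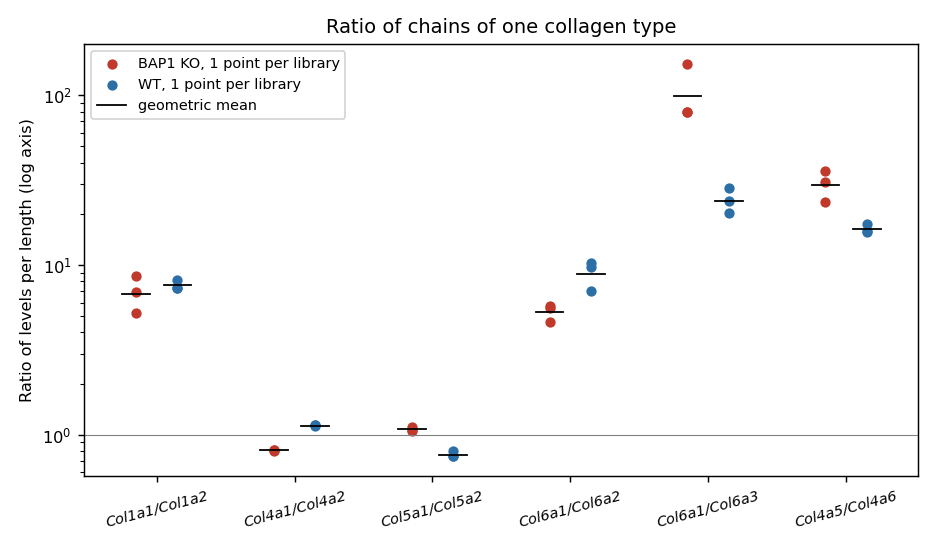
Ratio of the levels per length of 2 chains of 1 collagen type, on a log axis, for 6 pairs, with 1 point per library and the geometric mean as a line. The Col4a1/Col4a2 ratio lies at about 0.810 in the BAP1 KO-labelled libraries and 1.13 in the WT-labelled libraries, and the type I ratio overlaps between the groups.

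Changes of neighbouring collagen genes were set side by side. Besides the type IV pairs, Col3a1 and Col5a2 lie 24.6 kb apart on chromosome 1, with log2 fold changes of -3.11 and -1.38. Col6a1 and Col6a2, 85.2 kb apart on chromosome 10, stood at -1.20 and -0.47. Col6a1 and Col18a1, 326.1 kb apart on the same chromosome, stood at -1.20 and -2.50, and Col9a3 and Col20a1, 361.1 kb apart on chromosome 2, at -0.82 and 0.34, with opposite signs.

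The genes that modify, fold, process, cross-link and bind collagen were read from a list of 54, of which 48 were tested. Of these, 30 were lower, 14 higher and 4 not past the threshold. The share called, 91.7%, compares with 81.5% over all genes, that of lower genes, 62.5%, with 42.1%, and that of higher genes, 29.2%, with 39.4%. The median was -0.56. Among hydroxylases and glycosylating enzymes, 6 were lower and 7 higher of 15 tested, a split near that over all genes (42.1% lower, 39.4% higher). P4ha2 was read at 11.3, 12.2 and 10.7 CPM in the BAP1 KO-labelled libraries, against 181, 177 and 186 CPM in the WT-labelled libraries. P4ha2, a catalytic subunit of prolyl 4-hydroxylase, which stabilises the helix, was 15.9-fold lower (log2 fold change -3.99, SE 0.055, edgeR adjusted p = 4.99e-13), while P4ha1, the other main subunit, was higher, at 95.2 ± 0.63 CPM in the BAP1 KO-labelled libraries and 58.8 ± 1.2 CPM in the WT-labelled libraries (log2 fold change 0.70, SE 0.039, edgeR adjusted p = 2.91e-08). Plod2, the lysyl hydroxylase of the telopeptides, was 9.52-fold lower, at 33.1 ± 0.90 CPM in the BAP1 KO-labelled libraries and 315 ± 28 CPM in the WT-labelled libraries, and P3h4, a partner of lysyl hydroxylation in the endoplasmic reticulum, 12.8-fold lower, at 5.06 ± 0.21 CPM in the BAP1 KO-labelled libraries and 65.0 ± 2.4 CPM in the WT-labelled libraries (SD, n = 3 each). The related genes Plod1 and Plod3 were higher, at 1.87 (SE 0.054) and 0.59 (SE 0.045) on the log2 scale. Plod1 had means of 259 CPM in the BAP1 KO-labelled libraries and 70.7 CPM in the WT-labelled libraries. Plod3 had means of 169 CPM in the BAP1 KO-labelled libraries and 112 CPM in the WT-labelled libraries. Of the Plod3 exons, 11.9% overlap other genes, mainly Znhit1.

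Among folding and secretion genes, 5 of 8 tested were lower and 1 higher, a share called of 75%, against 81.5% of all genes. Fkbp10, a prolyl isomerase that serves procollagen folding, was 23.9-fold lower, at 2.05 ± 0.44 CPM in the BAP1 KO-labelled libraries and 49.7 ± 2.1 CPM in the WT-labelled libraries (log2 fold change -4.58, SE 0.10, edgeR adjusted p = 1.40e-11). The abundant collagen chaperone Serpinh1 (HSP47) was lower by less: Serpinh1 was read at 645, 667 and 613 CPM in the BAP1 KO-labelled libraries, against 758, 770.0 and 765 CPM in the WT-labelled libraries (log2 fold change -0.25, SE 0.037, edgeR adjusted p = 9.34e-05). Fkbp14, an isomerase related to Fkbp10, and the transcription factor Creb3l1 of the secretory pathway were lower, at -0.55 (SE 0.067) and -0.51 (SE 0.079) on the log2 scale. Of 7 tested genes of propeptide processing 5 were lower and 2 higher, where 42.1% of all genes were lower and 39.4% higher. Bmp1 was read at 92.4, 93.5 and 89.1 CPM in the BAP1 KO-labelled libraries, against 412, 409 and 444 CPM in the WT-labelled libraries. Bmp1, the C-proteinase of procollagen, was 4.60-fold lower, whereas Pcolce, which enhances it, was 6.003-fold higher, at 71.7 ± 3.4 CPM in the BAP1 KO-labelled libraries and 11.9 ± 0.43 CPM in the WT-labelled libraries. Adamts14, an N-proteinase, was lower, at -2.76 (SE 0.15) on the log2 scale.

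Of 5 cross-linking enzymes 3 were lower and 2 higher, too few to set apart from the shares over all genes. Lox was read at 33.3, 30.2 and 31.5 CPM in the BAP1 KO-labelled libraries, against 356, 426 and 342 CPM in the WT-labelled libraries. Lox, lysyl oxidase, was 11.9-fold lower (log2 fold change -3.57, SE 0.084, edgeR adjusted p = 2.02e-11), and its relatives Loxl1 and Loxl4 were lower, at -3.03 (SE 0.12) and -2.64 (SE 0.091). Its relatives Loxl2 and Loxl3 were higher, at 0.27 (SE 0.039) and 0.75 (SE 0.043). Their means were 76.9 and 85.5 CPM in the BAP1 KO-labelled libraries and 63.7 and 51.0 CPM in the WT-labelled libraries. Of the Loxl2 50-base sequences, 45.0% are shared with another gene, mainly Gm21451, and 11.6% of the Loxl3 exons overlap other genes, mainly Htra2. Among 6 tested proteoglycans that bind fibrils, 5 were lower and 1 higher (42.1% and 39.4% over all genes). Dcn and Bgn, decorin and biglycan, stood at -2.80 and -2.78, while Ogn was the exception: Ogn was read at 37.8, 35.9 and 38.1 CPM in the BAP1 KO-labelled libraries, against 2.30, 2.42 and 1.41 CPM in the WT-labelled libraries, an 18.4-fold rise (log2 fold change 4.201, SE 0.13, edgeR adjusted p = 1.46e-10). Of 7 tested receptors for collagen 6 were lower and 1 higher, beside the same shares over all genes. Itga2, the alpha chain of a collagen-binding integrin, was 12.6-fold lower, at 3.55 ± 0.26 CPM in the BAP1 KO-labelled libraries and 44.7 ± 1.0 CPM in the WT-labelled libraries, and Itga1 was lower, at -1.75 (SE 0.11) on the log2 scale. Itga10 was lower, at -0.78 (SE 0.11) on the log2 scale, with 33.5% of its exons overlapping Gm42957, which makes its count uncertain in a library type that does not mark strand. The collagen receptor kinases Ddr1 and Ddr2 were lower too, at -0.56 (SE 0.046) and -0.62 (SE 0.094). The keratinocyte markers and most of the fibroblast markers tested were lower in the same libraries, and their part in these differences was not tested. Dcn and Lum are members of both the proteoglycan and the fibroblast lists, so these readings are not separate for them.

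**Figure D5:**
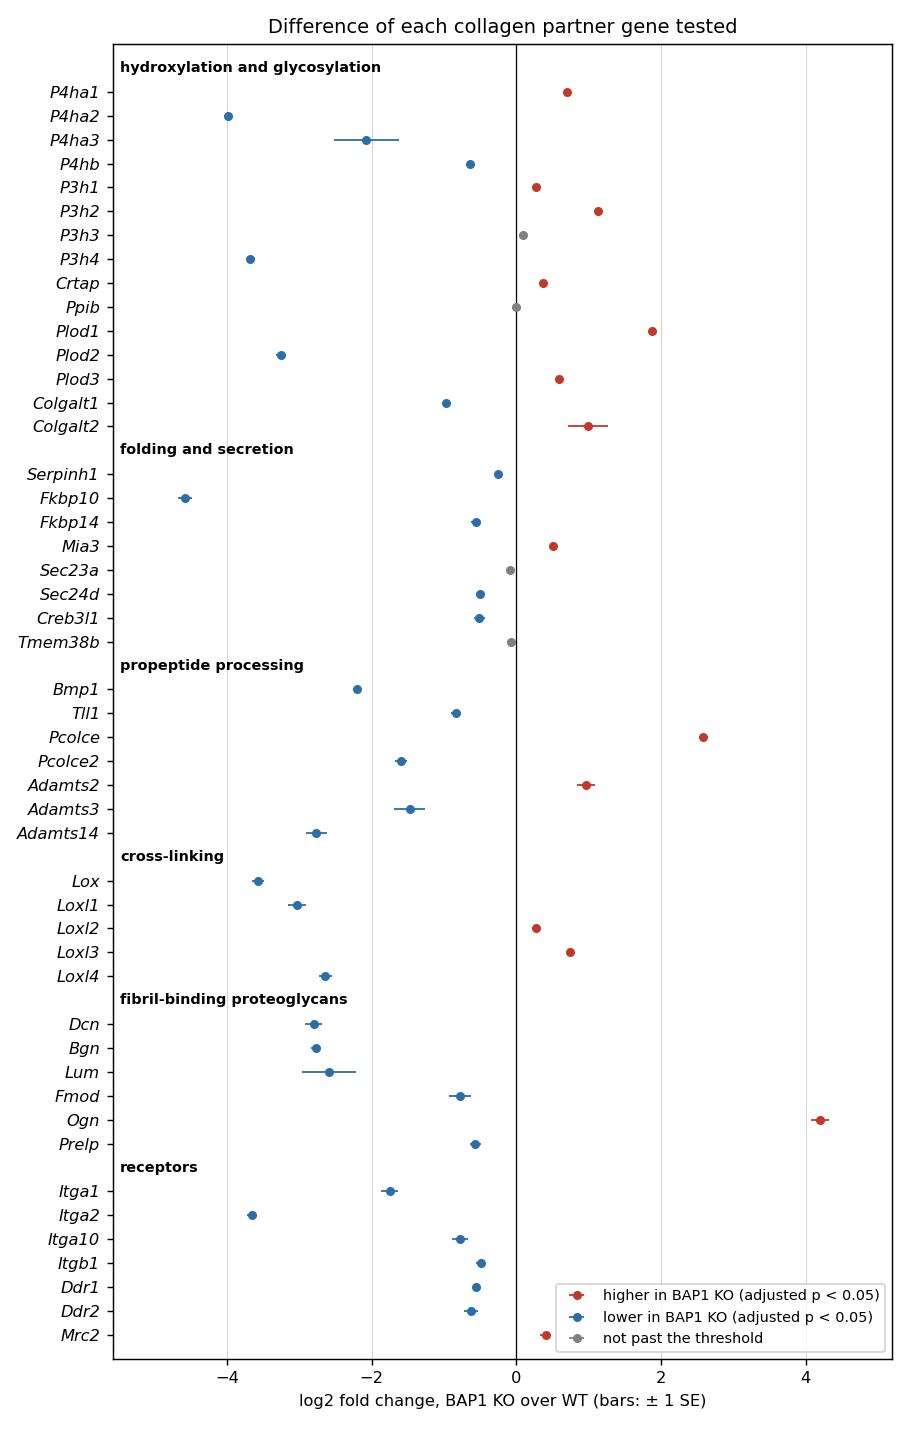
Log2 fold change of the 48 collagen partner genes tested, BAP1 KO-labelled libraries over the WT-labelled libraries, by role, with 1 standard error on each side. Values range from -4.58 for Fkbp10 to 4.201 for Ogn, and each role holds genes on both sides of 0.

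The library kit does not mark strand, so overlap with other genes was checked. For the collagen genes at most 6.07% of the merged exons (Col9a3, with Tcfl5) overlapped another gene of GENCODE M21 on either strand, and at most 4.88% of 50-base sequences were shared with another gene. With a log2 fold change of 1 as the null (edgeR's glmTreat), 4 collagen genes were higher and 21 lower, where 30.6% of all genes were called.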

How the data were processed

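PolyA RNA of primary mouse melanocytes was sequenced in 6 libraries (TruSeq RNA v2, a kit that does not mark strand; HiSeq4000, single reads of 50 bases, per the labels' protocols). Per the submitters' processing notes, GSNAP and GRCm38 were used; version, counter and annotation: not given in the sources used here. The deposited count, per the file headers, is the number of reads aligned uniquely to each gene model, and the other deposited value is RPKM adjusted by a size factor (nRPKM), which was used only for levels per length. Samples were grouped by the genotype label, and replicates numbered by submission order.

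IDs were matched to the RefSeq table of GRCm38.p6 (31049 of 36528, 85.0%; all collagen genes). Counts were filtered with filterByExpr (minimum count 10, total 15), TMM-scaled (0.975 to 1.03) and compared in R 4.3.3 by edgeR's quasi-likelihood test (version 4.0.16, no covariate), with Benjamini-Hochberg adjustment over 17121 genes at 0.05. Standard errors are the size of the log2 fold change divided by the root of F. Chain ratios were compared by exact permutation. The tests were tried on simulated data. Alternatives were other scalings, filters and thresholds, DESeq2 1.42.0, limma-voom (limma 3.58.1), the robust option and leaving out each library.

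Collagen genes that reached a mean of 1 CPM in a group are given per library. Of the partner list, the 3 called genes per role with the largest absolute change and at least 2 CPM are named, plus Serpinh1, P4ha1, Plod2, Lox, Itga1, Itga2, Ddr1 and Ddr2. Plod1, Plod3, Loxl2 and Loxl3 were added after their values were seen, because they went against named relatives. The genes and lists were chosen with earlier results of these data known. Counting error is small against the spread between libraries for the most abundant genes, such as Col4a1, Col4a2 and Col18a1, and limits those under 1 CPM. It is not confined to the latter. Col28a1, with 521 to 608 reads per BAP1 KO-labelled library, spread there by no more than counting alone would give (14.3 ± 0.17 CPM, SD).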

Additional observations from a re-analysis of the deposited data

How the results depend on the processing

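Of 635 values of the 38 collagen genes tested under the alternatives, 613 kept their direction and their side of the threshold. Col4a2 ranged from -0.067 to 0.024 with 1 library left out, and changed sign, to 0.0041 without a count filter, 0.024 without replicate 3 of the BAP1 KO-labelled libraries and 0.020 without replicate 3 of the WT-labelled libraries; its edgeR, DESeq2 or limma adjusted p ranged from 0.0494 to 1, and the cause was not tested. Against a log2 fold change of 1, which calls only larger differences by construction, 4 collagen genes were higher and 21 lower. Of the partner genes 4 were higher and 17 lower, and of all genes 1818 were higher and 3417 lower (30.6% in either direction). Leaving out 1 library gave 7 to 8 collagen genes higher and 26 to 28 lower, 14 to 15 partner genes higher and 30 lower, and 6506 to 7117 of all genes higher and 6915 to 7260 lower. The log2 difference of the Col1a1 to Col1a2 ratio ranged from -0.33 to 0.026 and changed sign without replicate 3 of the BAP1 KO-labelled libraries; the other 5 ratios kept their sign. Depth limits the genes under 1 CPM. No paired analysis was possible because the labels give no shared replicate numbers.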

Other observations

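Collagen-like helices also occur in proteins outside the collagen family, and 31 such genes and 3 further type VI chains were read from a list added after the data were examined. Of the 34 genes, 21 were tested, and 10 were higher and 11 lower (edgeR adjusted p under 0.05), a split near that over all genes (39.4% higher, 42.1% lower), with a median log2 fold change of -0.64. The genes named next were chosen after their values were seen. Scara3, a scavenger receptor, was read at 0.458, 0.399 and 0.390 CPM in the BAP1 KO-labelled libraries, against 39.2, 35.8 and 41.1 CPM in the WT-labelled libraries (log2 fold change -6.53, SE 0.11, edgeR adjusted p = 1.67e-12). Marco, a scavenger receptor best known from macrophages, was read at 17.4, 17.5 and 17.8 CPM in the BAP1 KO-labelled libraries, against 0.892, 1.22 and 1.09 CPM in the WT-labelled libraries (log2 fold change 4.03, SE 0.0998, edgeR adjusted p = 3.00e-11). The complement genes C1qa, C1qb and C1qc were higher, with log2 fold changes of 1.24 (SE 0.13), 0.75 (SE 0.17) and 1.16 (SE 0.14), at means of 3.27 to 4.43 CPM in the BAP1 KO-labelled libraries and 1.73 to 1.98 CPM in the WT-labelled libraries. Of 9 immune markers 7 were tested, 4 higher and 3 lower. Higher were Ptprc, Cd68, Lyz2 and Tyrobp, at log2 fold changes of 0.84, 1.54, 2.97 and 1.69. Lower were Cd14, Adgre1 and Itgam, at -4.32, -0.83 and -0.32. The 9 markers summed to 228 to 236 CPM in the BAP1 KO-labelled libraries and 66.3 to 73.3 CPM in the WT-labelled libraries, mostly Lyz2 under the BAP1 KO label. Their part in the Marco and C1q differences was not tested. Cthrc1, a secreted protein of remodelling tissue, was lower, at a log2 fold change of -3.57 (SE 0.20), and C1qtnf1 too, at -3.27 (SE 0.068), with 20.5% of its exons overlapping Gm11747. C1qtnf5 was higher, at 3.66 (SE 0.12), but all of its exons overlap Mfrp, so its reads cannot be assigned. Col6a4, Col6a5 and Col6a6 had 4, 3 and 0 reads over the BAP1 KO-labelled libraries and 4, 7 and 1 over the WT-labelled libraries, and were not tested.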
